A study of Mus musculus with 2 samples.

Results

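The inhibitory receptor gene Pirb and the adaptor gene Dok2, whose product dampens Ras signalling, were described here in mouse erythroid cells with lowered Lmo2, together with the receptors, adaptors and phosphatases that act beside them. The group holds 9 genes: Pirb, Lilrb4, Sirpa, Dok1, Dok2, Dok3, Ptpn6, Ptpn11 and Inpp5d. They were chosen by the array log2 ratios of this same comparison, in which Pirb and Dok2 were strongly higher with LMO2 siRNA, so their values are given as a description, and no p-value is given for any of them. The array carries 17 probes for them among 41174 probes in all. Of these, 14 probes gave signal above background, which left 8 measured genes of the 9, among 14259 measured genes on the array.

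The cells were G1E-ER-GATA-1, a GATA-1-null mouse erythroid line that carries GATA-1 fused to an estrogen receptor domain, so that β-estradiol switches GATA-1 on. Cells given LMO2 siRNA were compared with cells given control siRNA, and both arms had β-estradiol for 24 h. Lmo2 encodes a bridging protein of the GATA-1 complex, and the study looked for transcripts that change in induced cells when it is lowered. Each of 2 Agilent arrays was hybridised with total RNA of the LMO2 siRNA arm in Cy3 and of the control siRNA arm in Cy5. The dyes were not swapped, so the effect of dye and of siRNA cannot be told apart. The arrays are numbered as replicates in the labels, which name no separate cultures, so p-values rest on the spread between these arrays, which may be technical. That spread is mostly pooled over all genes, with 26.26 prior and 1 residual degrees of freedom. A very small p-value therefore owes little to the gene's own spread. All the cells come from a single engineered line. The labels call the tissue erythroid but describe the cell type as mouse ES cells. All 9 erythroid markers with a probe were above background, among them Klf1, Alas2 and Slc4a1. In bulk RNA of this kind, fewer cells of a type and less RNA per cell cannot be told apart.

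As background, PirB, LILRB4 and SIRPα carry immunoreceptor tyrosine-based inhibitory motifs (ITIMs) in their cytoplasmic tails. Src family kinases phosphorylate these motifs, which then recruit the tyrosine phosphatases SHP-1 (Ptpn6) and SHP-2 (Ptpn11) or the inositol phosphatase SHIP-1 (Inpp5d), and activating signals in the same cell are dampened. Dok1, Dok2 and Dok3 are adaptors of haematopoietic cells that are phosphorylated by the same kinases; Dok1 and Dok2 bind the Ras GTPase-activating protein, and Dok3 works with SHIP-1.

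The first 30 bases of the 60-base probes behind the main values show what was read out. The Pirb probes are printed together because they overlap: 50 of their 60 bases are the same, and the capitals mark the stretch of that shared run that falls within the printed bases. The probe of Dok2 follows as the other strongly higher member, then that of Inpp5d as a smaller difference, and both Dok1 probes because their values differ. The longest run that any member's probe shares with a probe of another gene was 15 bases. Probes were compared with probes only, not with transcripts, so this does not show which transcripts a probe can bind.
Pirb, A_51_P445728: aagggactctGGGAACTTTTGGAAACGTGA
Pirb, A_51_P445726: GGGAACTTTTGGAAACGTGACTGCACTTTA
Dok2, A_51_P446469: tatagatgttttgttcctgggacaaccctg
Inpp5d, A_51_P337125: cttgtcttgctttttgatatatcaggatta
Dok1, A_51_P275976: tgagacagttgctgataggaggtccaatgg
Dok1, A_52_P366842: tctgtacagccaggtccagaaaagtgggac

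Lmo2 itself was lower in the LMO2 siRNA arm. Its normalised intensity was 1735 and 1573 with LMO2 siRNA in replicates 1 and 2, against 6114 and 6361 with control siRNA. The log2 ratio of LMO2 siRNA over control siRNA averaged -1.92 ± 0.14 (SD, n = 2 arrays), with an adjusted p of 3.56e-20 in limma. Normalised intensity here is the brightness of a probe in each channel after background correction with an offset of 50 and loess normalization within the array; it can be compared between arms for the same probe, not between probes. The share of spots well above background ran from 55.84% to 68.17% per channel. A gene was called where limma's adjusted p was under 0.05, and 52.0% of measured genes were called in either direction. So many calls from 2 arrays of the same dye orientation led to a stricter count: genes called in the same direction in the loess values, after correction for position on the array and in the scanner's processed signals, and unsaturated. That rule held for 8.43% of measured genes, 5.69% of them higher and 2.74% lower with LMO2 siRNA. Across genes, which are no independent replicates, the log2 ratios of the arrays had r = 0.898.

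Among the receptors, Pirb was several-fold higher with LMO2 siRNA by both of its probes, while Sirpa differed little and Lilrb4 was not measured. The probe that stands for Pirb had a normalised intensity of 2011 and 2384 with LMO2 siRNA in replicates 1 and 2, against 488 and 628 with control siRNA. Both LMO2 siRNA values lay above both control values, with no overlap. Its log2 ratios were 2.04 and 1.92, a mean of 1.98 ± 0.08 (SD, n = 2), or 3.96-fold. This placed Pirb at rank 5 of the 14259 genes ordered by log2 ratio from the highest down. The second probe read 1290 and 1571 with LMO2 siRNA, against 203 and 245 with control siRNA. Its log2 ratio averaged 2.67, or 6.38-fold, so both probes put the LMO2 siRNA arm far above the control arm and differ only in how far.

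The Pirb probes lie far apart on the array and differ in size. Their log2 ratios lay 0.69 apart in the loess values although they share most of their bases. One sits at row 40 and the other at row 459, and the median log2 ratio of all probes within 25 rows was -0.19 around the first and 0.12 around the second. After the scanner's position ratio was applied, the probes read 2.33 and 2.50, a gap of 0.17. In the scanner's processed signals they read 2.44 and 2.85, a gap of 0.41. The part of array position in the gap was not tested. Pirb was therefore between 3.96-fold and 7.21-fold higher with LMO2 siRNA over both probes and these 3 sets of values.

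Lilrb4, known in mouse as gp49B, is an ITIM receptor of mast cells and other myeloid cells. Its single probe was not well above background in either channel on either array. It read 68.8 and 69.6 with LMO2 siRNA, against 73.4 and 70.9 with control siRNA, and no ratio is given. Sirpa encodes SIRPα, the receptor for the "don't eat me" ligand CD47. Of its 3 probes 1 was above background, reading 217 and 207 with LMO2 siRNA, against 237 and 182 with control siRNA. The control values lie on either side of the LMO2 siRNA values. Replicate 1 gave a log2 ratio of -0.13 and replicate 2 one of 0.18, so the arrays differ in sign and the mean of 0.03 ± 0.22 (SD, n = 2) is smaller than their spread. The other probes read between 62.4 and 76.2 with LMO2 siRNA and between 63.6 and 76.4 with control siRNA, and were not above background by the rule used here.

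**Figure D1:**
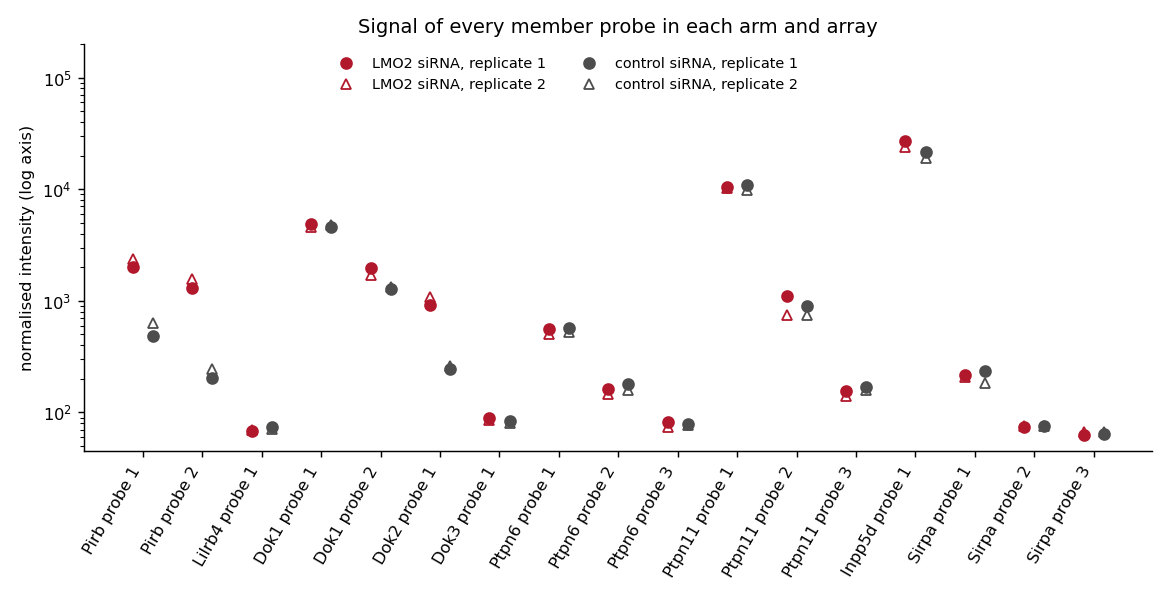
Normalised intensity (log axis) of the 17 probes of the 9 genes, with LMO2 siRNA in red left of control siRNA in grey; filled circles are replicate 1 and open triangles replicate 2. The red and grey points of Pirb and Dok2 are far apart (2011 and 2384 against 488 and 628 for Pirb probe 1), while those of Ptpn6, Ptpn11 and Sirpa nearly coincide; heights can be compared within a probe only.

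Of the Dok adaptors, Dok2 was far higher with LMO2 siRNA, and Dok1 and Dok3 were close to equal between the arms in the loess values. Dok2, which with Dok1 restrains myeloid cell growth in mouse, read 923 and 1078 with LMO2 siRNA, against 247 and 258 with control siRNA. The arms did not overlap. Its log2 ratios were 1.90 and 2.06, a mean of 1.98 ± 0.11 (SD, n = 2), or 3.95-fold, and it held rank 6, next after Pirb. The probe lies near the middle of the array, at row 290, where the local median log2 ratio was 0.01. Dok2 read 1.90 after position correction and 2.23 in the processed signals. It has a single probe on the array, so no other probe of the gene bears on the value.

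Dok1, the founding member of the family, had 2 probes above background that did not give the same picture. The probe that stands for the gene read 4832 and 4560 with LMO2 siRNA, against 4541 and 4782 with control siRNA. These values are interleaved, with log2 ratios of 0.09 in replicate 1 and -0.07 in replicate 2. The other probe read 1953 and 1693 with LMO2 siRNA, against 1285 and 1333 with control siRNA, without overlap. Its log2 ratio averaged 0.47 ± 0.18 (SD, n = 2), or 1.39-fold. This probe also lies at the far end of the array, at row 458, where the local median was 0.11. The gap between the Dok1 probes was 0.46 in the loess values, 0.20 after position correction and 0.21 in the processed signals, and both probes were above 0 in these last 2 sets. Dok3, an adaptor best known from B cells and macrophages, was dim: it read 89.1 and 86.0 with LMO2 siRNA, against 84.4 and 80.3 with control siRNA. Its log2 ratio averaged 0.09 ± 0.01 (SD, n = 2) in the loess values, where the offset of 50 makes up much of so low a reading. It was -0.00 after position correction and 0.52 in the processed signals, and 0.17 with a background offset of 10, so its size is not settled.

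**Figure D2:**
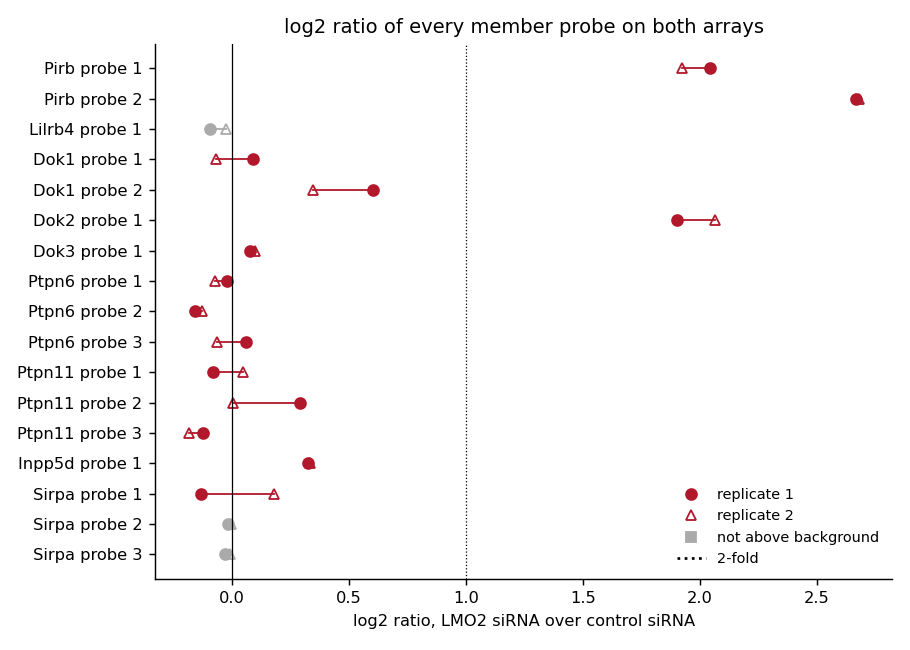
The log2 ratio of LMO2 siRNA over control siRNA for each of the 17 probes, with replicate 1 as a filled circle and replicate 2 as an open triangle joined by a line; grey marks the 3 probes not above background and the dotted line marks 2-fold. The probes of Pirb and Dok2 lie to the right of the 2-fold line on both arrays, and the other 14 probes lie to its left.

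The phosphatases that these receptors and adaptors recruit differed far less than Pirb and Dok2. Ptpn6 encodes SHP-1, the main phosphatase of PirB in haematopoietic cells. It read 558 and 501 with LMO2 siRNA, against 567 and 527 with control siRNA, and the arms overlap across the arrays. Within an array its log2 ratio was -0.02 in replicate 1 and -0.07 in replicate 2. The log2 ratio averaged -0.05 ± 0.04 (SD, n = 2), and the remaining 2 probes averaged -0.14 and -0.00. The value was 0.09 after position correction and 0.09 in the processed signals, so Ptpn6 has no settled sign in these data. Ptpn11 encodes SHP-2, the broadly expressed relative of SHP-1. It read 10360 and 10274 with LMO2 siRNA, against 10964 and 9935 with control siRNA. The control values lie on either side of the LMO2 siRNA values, and the log2 ratio averaged -0.02 ± 0.09 (SD, n = 2). Its remaining probes averaged 0.15 and -0.15, which brackets 0.

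Inpp5d encodes SHIP-1, which removes the 5-phosphate from the lipid PIP3 made by PI3 kinase. It read 27253 and 23796 with LMO2 siRNA, against 21735 and 18876 with control siRNA, and the lower LMO2 siRNA value lies above the higher control value. The log2 ratio was 0.33 on both arrays, with a mean of 0.33 ± 0.0055 (SD, n = 2), or 1.26-fold. It was 0.30 after position correction and 0.33 in the processed signals. When each array was instead centred on its median, the value turned to -0.44, while the median of all genes moved to -0.41 from -0.02 with loess. Measured from the median of all genes, Inpp5d stood 0.35 above it with loess and 0.03 below it with median centring (-0.03), so its direction depends on the choice between these normalizations.

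**Figure D3:**
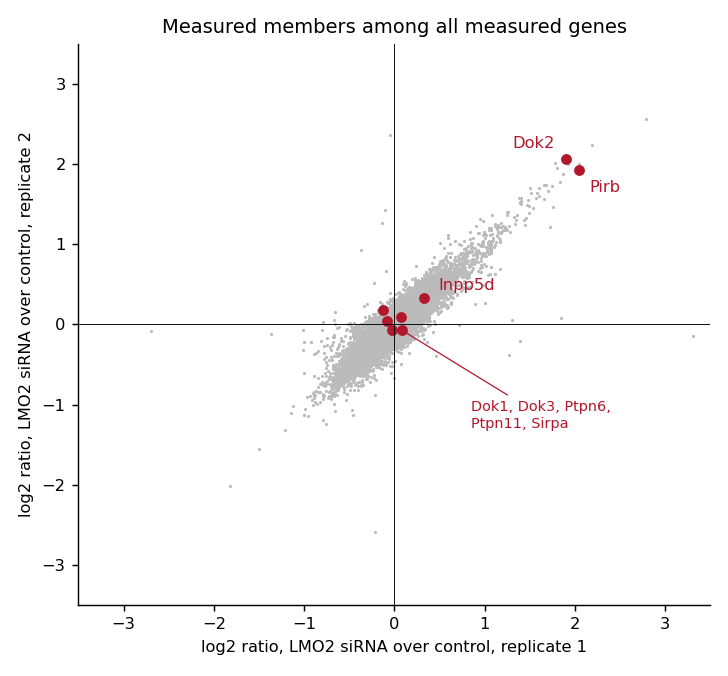
Log2 ratio of LMO2 siRNA over control siRNA on replicate 1 (horizontal) and replicate 2 (vertical) for 14259 measured genes in grey and the 8 measured members in red. Pirb and Dok2 lie near the upper right end of the cloud at about 1.98 on average, Inpp5d lies at 0.33, and the other 5 members lie near the origin.

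Counted over the group, 2 of the 8 measured members, Pirb and Dok2, were 2-fold or more higher on both arrays, and none was 2-fold or more lower. Of all measured genes, 1.02% were 2-fold or more higher on both arrays and 0.0421% were 2-fold or more lower. In the limma fit over all genes, which holds the members too, 3 of them were called higher, 0 lower and 5 not called, against 24.6% of all genes called higher and 27.4% called lower. By the stricter rule 2 were higher, against 5.69% of all genes. The median log2 ratio was 0.06 over the measured members and -0.02 over all measured genes. Since the group was picked in this comparison, nothing is read from these counts. Loess and median centring set the scale: measured from the median of all genes, Pirb stood at 2.00 with loess and 1.81 with median centring, and Dok2 at 2.00 and 1.89. In the same order Dok1 stood at 0.03 and -0.26, Dok3 at 0.11 and 0.52, and Ptpn11 at 0.001 and -0.33. Ptpn6 stood at -0.03 and -0.15, and Sirpa at 0.04 and 0.09. The near-equality of Dok1, Dok3 and Ptpn11 therefore depends on the normalization.

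**Figure D4:**
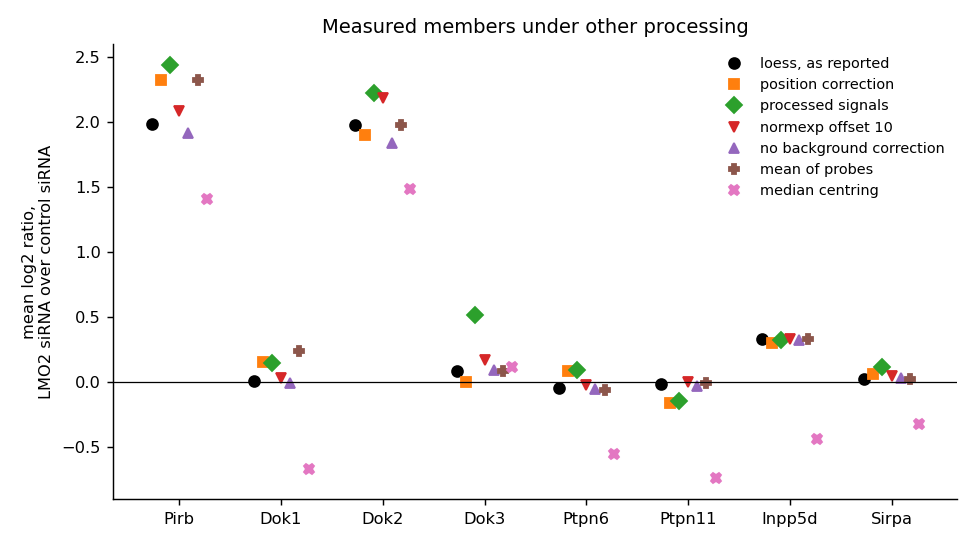
Mean log2 ratio of LMO2 siRNA over control siRNA of the 8 measured members under 7 ways of processing the same arrays. Pirb (1.41 to 2.44) and Dok2 (1.49 to 2.23) stay above 1 in all 7, Inpp5d is positive in all but median centring, where it reads -0.44, and the others lie close to 0 except under median centring and, for Dok3, in the processed signals (0.52).

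The genes whose log2 ratios on the arrays lay nearest to those of Pirb, by Euclidean distance over the 2 values, were Pdxk, Myo1g, Ahnak, Hey1 and Dok2. Their distances were between 0.072 for Pdxk and 0.197 for Dok2. Those nearest to Dok2 were Ahnak, Myo1g, Lgals3, Vim and Pdxk, at distances between 0.033 and 0.157. Pdxk encodes pyridoxal kinase, Myo1g a haematopoietic class I myosin, Hey1 a Notch target repressor, Lgals3 galectin-3 and Vim vimentin. The 6 genes other than Dok2 had mean log2 ratios between 1.87 and 2.02. With 2 arrays, nearness says only that the sizes were alike.

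The other genes of inhibitory receptor signalling, taken from 6 lists by role, were spread on both sides of 0. Of 147 listed genes, 136 had a probe and 99 were measured; 36 were called higher, 13 lower and 50 not called, against 24.6% of all genes called higher and 27.4% called lower. By the stricter rule 21 were higher and 4 lower, against 5.69% and 2.74% of all genes. These shares are the background for the counts of each list below. The median log2 ratio was 0.03, against -0.02 for all genes. With median centring, which moved the median of all genes to -0.41, 18 of the 36 higher calls read below 0, and 7 of the 21 strict ones: Rasa1, Ptpn18, H2-K1, H2-D1, H2-Q7, H2-T23 and Rtn4. Measured from that median, 1 of the 36 higher calls (Inpp5b) lay below it, 2 of the 13 lower calls (Ly9 and Rasa3) lay above it, and none of the strict calls changed side.

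Of 20 listed ligands of PirB, LILRB4 and SIRPα and their loading factors, 14 were measured, with 8 called higher, 1 lower and 5 not called. The median log2 ratio was 0.25. H2-Q7, a class I MHC heavy chain of the kind that PirB binds, averaged 0.39 ± 0.09 (limma adjusted p = 1.95e-06), and the strict rule also held for H2-K1 at 0.25, H2-D1 at 0.35 and H2-T23 at 0.36. With median centring these 4 values read below 0 but between 0.06 and 0.14 above the median of all genes. Class I genes are near-identical copies whose probes may share transcripts. B2m, the light chain of class I molecules, was not called at 0.02, although its 3 probes ranged up to 0.64. Cd47, the ligand of SIRPα, was not called at 0.02, and its 4 probes ranged up to 0.55. With median centring B2m read -0.75 and Cd47 read -0.76, and both stood at -0.35 measured from the median of all genes. Rtn4 encodes Nogo, a neuronal ligand of PirB; it averaged 0.46 ± 0.12, and its 4 probes ranged from -0.14 to 0.71. With median centring it read -0.05, which is 0.35 above the median of all genes. Tapbp, which encodes the peptide-loading factor tapasin, was called higher at 0.56 ± 0.07 but not by the strict rule, and another probe read -0.09. Mag, which encodes a myelin glycoprotein that also binds PirB, fell to 2357 and 1605 with LMO2 siRNA, against 3658 and 2725 with control siRNA, a log2 ratio of -0.70 ± 0.09 (limma adjusted p = 4.66e-11). A second Mag probe read -0.06.

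Of 30 other ITIM and related inhibitory receptors, 15 were measured: 3 were called higher, 2 lower and 10 not called, and the median was -0.02. Fcgr2b encodes the inhibitory IgG receptor FcγRIIB, which signals through SHIP-1. It read 227 and 275 with LMO2 siRNA, against 119 and 124 with control siRNA. Its log2 ratio averaged 1.04 ± 0.16 (limma adjusted p = 2.24e-14), and 1.38 after position correction and 2.03 in the processed signals. The 3 Fcgr2b probes ranged from 0.51 to 1.48. Cd200r1, the receptor for CD200 and a partner of Dok2, is an inhibitory receptor without an ITIM. It read 159 and 180 with LMO2 siRNA, against 93.6 and 101.2 with control siRNA. It averaged 0.79 ± 0.05 (limma adjusted p = 2.36e-12) and 1.86 in the processed signals, and another probe read 0.49. For both genes the LMO2 siRNA values lay above the control values on both arrays, and the strict rule held. Treml1, a platelet receptor, was called higher at 0.30 and Cd5 lower at -0.41, neither by the strict rule. Lair1 at -0.07, Cd33 at -0.13 and Cd300a at 0.05 were not called in the loess values. In the processed signals Cd33 read -1.16 (limma adjusted p = 0.0259).

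Of 27 activating receptors and their DAP12 and FcRγ partners, 14 were measured: 3 were called higher, 1 lower and 10 not called, and the median was -0.02. Lilra6, a paired activating relative of Pirb, was called higher at 0.42 ± 0.16, though not by the strict rule. Pira6, another activating relative, was dim at 85.4 and 84.2 with LMO2 siRNA, against 77.1 and 74.7 with control siRNA. Its log2 ratio was 0.16 in the loess values and 1.02 in the processed signals, called higher in both. The Pira and Pirb genes are near-identical copies, so a probe may read more than 1 of them. Pilrb1 rose by 0.21 and Oscar fell by 0.20 on the log2 scale, both by the strict rule. The signalling partners Tyrobp, which encodes DAP12, at 0.13 and Fcer1g, which encodes FcRγ, at -0.11 were not called.

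Of 23 kinases and their regulators, 16 were measured: 4 were called higher, 1 lower and 11 not called, and the median was 0.03. Btk, the Tec family kinase whose recruitment to PIP3 SHIP-1 limits, read 2410 and 2470 with LMO2 siRNA, against 1066 and 1123 with control siRNA. Its log2 ratio averaged 1.16 ± 0.03 (limma adjusted p = 7.48e-16), and the other sets gave 1.25 and 1.28. Tec at 0.55 ± 0.05 and Yes1 at 0.23 ± 0.04 also rose by the strict rule, though another Tec probe read 0.26. Zap70 was called lower at -0.41, but not by the strict rule, and read -0.01 after position correction and -0.67 in the processed signals (limma adjusted p = 0.0376). Lyn, the Src family kinase that phosphorylates PirB in myeloid and B cells, was not called at 0.05 in the loess values. It read 0.33 after position correction and 0.31 in the processed signals, and another probe read 0.57. With median centring Lyn read -0.54, and stood at -0.13 measured from the median of all genes. Csk, its negative regulator, was not called at -0.13. Syk was not above background.

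Of 21 other Dok family members and PTB or RasGAP partners, 16 were measured: 5 were called higher, 5 lower and 6 not called, and the median was 0.01. Dok4 at 0.12 and Dok7 at 0.04 were not called. Rasa1 encodes the RasGAP that binds Dok1 and Dok2; it was called higher at 0.13. With median centring it read -0.36, which is 0.05 above the median of all genes. Grap2, an adaptor of T cells and platelets also called Gads, averaged 1.04 ± 0.14 (limma adjusted p = 1.64e-14), although another probe read 0.16. Frs2, a PTB adaptor of growth factor receptors, read 6744 and 6174 with LMO2 siRNA, against 11006 and 10392 with control siRNA. It fell by 0.73 on the log2 scale (limma adjusted p = 1.31e-11), and its 3 probes ranged from -0.79 to -0.18. Crk at -0.48 and Irs4 at -0.32 were called lower, but not by the strict rule.

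Of 26 partners of the SHP and SHIP phosphatases and other lipid phosphatases, 24 were measured: 13 were called higher, 3 lower and 8 not called, and the median was 0.15. Fyb, an adaptor also called ADAP, read 8630 and 9083 with LMO2 siRNA, against 3594 and 3875 with control siRNA. Its log2 ratio averaged 1.25 ± 0.02 (limma adjusted p = 1.54e-16), but another of its 3 probes read -0.03. Lcp2 encodes SLP-76, the scaffold that Fyb and Grap2 bind, and it averaged 1.22 ± 0.21 (limma adjusted p = 2.54e-15). Inpp4b, which encodes a phosphatase acting on the lipid product of SHIP-1, averaged 1.12 ± 0.02, and another probe read 0.63. Inpp4a, a relative of Inpp4b, fell by 0.33. Inppl1 encodes SHIP-2 and rose by 0.62, and Ptk2b rose by 0.60, though another Ptk2b probe read 0.28.

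**Figure D5:**
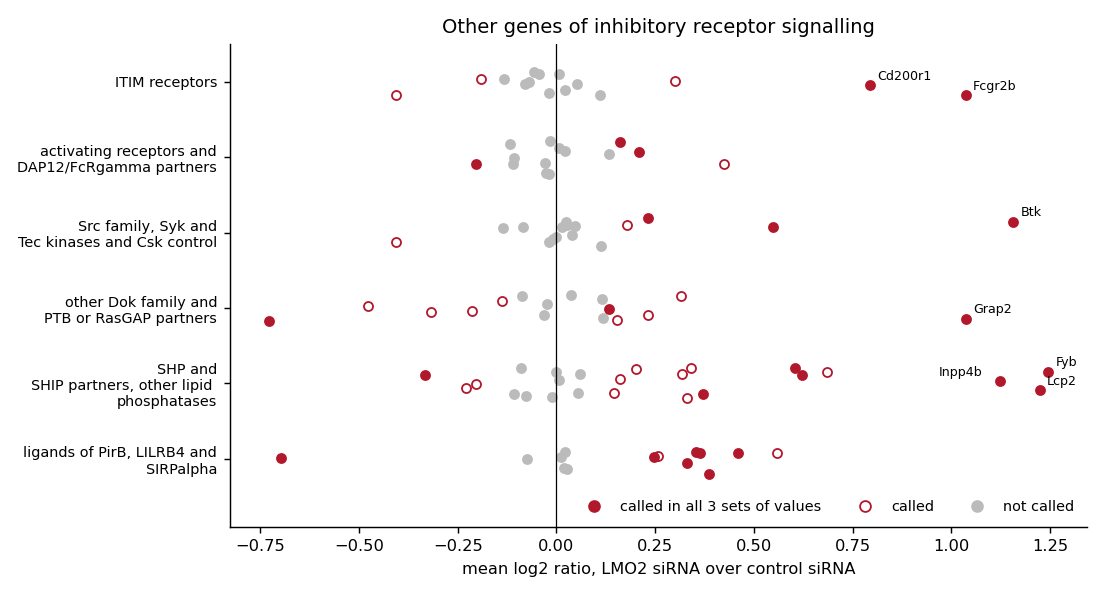
Mean log2 ratio of LMO2 siRNA over control siRNA for the 99 measured genes of the 6 lists, 1 row per list; filled red points were called in all 3 sets of values, open red points were called in the loess values but not in all 3, and grey points were not called. Fcgr2b, Cd200r1, Btk, Grap2, Fyb, Lcp2 and Inpp4b lie to the right of 0.75, and most other genes lie within 0.5 of 0.

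Markers of other blood cells were examined because Pirb and Dok2 are known from myeloid cells. Of 13 macrophage and monocyte markers, 8 were above background and Adgre1, C1qa, Ms4a7, Cx3cr1 and Ccr2 were not. The summed normalised intensity of all 13, measured or not, was 1370 and 1323 with LMO2 siRNA, against 1365 and 1297 with control siRNA. Of the 8 above background, 1 was called higher, Cd68 at 0.55. Over all genes 24.6% were called higher and 27.4% lower, which is the background for the counts of each marker list. Granulocyte markers summed to 804 and 791 with LMO2 siRNA, against 820 and 784 with control siRNA, with 1 called higher. B cell markers summed to 793 and 731 with LMO2 siRNA, against 820 and 764 with control siRNA, with Vpreb1 called lower at -0.16, and Cd79b, Pax5, Igll1 and Ebf1 were not above background. These 3 sums were close between the arms. They include 5 of 13 macrophage and monocyte genes, 6 of 10 granulocyte genes and 4 of 8 B cell genes not above background. Readings near background, with the offset added, make up part of each sum in both arms. Close sums therefore cannot show whether RNA of these cell types changed.

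The summed intensity of the mast cell and megakaryocyte lists was higher with LMO2 siRNA. Mast cell markers summed to 1655 and 1666 with LMO2 siRNA, against 1120 and 1131 with control siRNA, with 4 of 8 called higher, 2 of them by the strict rule, Hdc by the most at 1.22, and a median log2 ratio of 0.10. Megakaryocyte markers summed to 3443 and 3707 with LMO2 siRNA, against 2591 and 2754 with control siRNA, with 3 of 9 called higher, 1 lower and 5 not called, and a median log2 ratio of 0.10. Of all genes, 24.6% were called higher and 27.4% lower, and 5.69% were higher by the strict rule. The part of mast cells and megakaryocytes in the Pirb and Dok2 values was not tested. Of the T and NK cell markers 3 of 8 were above background, and of the dendritic cell markers 4 of 8. Over all T and NK cell markers with a probe, the sums were 775 and 696 with LMO2 siRNA, against 858 and 732 with control siRNA. Cd3e was called lower, at -0.34. For dendritic cells the sums were 833 and 767 with LMO2 siRNA, against 1220 and 854 with control siRNA. Flt3 was called lower at -0.15 and Zbtb46 at -0.62.

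LMO2 acts with DNA-binding partners that read GATA and E-box motifs, so the promoter windows of the members were searched for these letters. RefSeq promoter windows of 300 bases (GRCm38.p6) were at hand for 5 of the 9 members: Pirb, Dok3, Ptpn6, Ptpn11 and Inpp5d. The motifs were the GATA letters AGATAA and the related letters TGATAA, the E-box CAGNTG and the Ets letters AGGAAG, each on both strands. Of 32851 promoters, 11.2% hold AGATAA, a share of 9.05% hold TGATAA, 51.4% hold CAGNTG and 35.4% hold AGGAAG. Other variants of the GATA motif were not searched. The windows of Pirb, a member far higher with LMO2 siRNA, and of Inpp5d, the member with a match to TGATAA, are printed with matches in capitals. The Pirb window is chr7:3720333-3720632 on the minus strand and the Inpp5d window is chr1:87620062-87620361 on the plus strand.
Pirb promoter: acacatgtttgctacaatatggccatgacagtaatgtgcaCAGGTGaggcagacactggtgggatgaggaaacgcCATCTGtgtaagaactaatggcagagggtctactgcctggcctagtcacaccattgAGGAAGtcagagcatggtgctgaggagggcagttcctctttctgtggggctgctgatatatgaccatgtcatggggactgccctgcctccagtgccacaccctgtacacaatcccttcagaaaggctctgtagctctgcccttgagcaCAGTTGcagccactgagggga
Inpp5d promoter: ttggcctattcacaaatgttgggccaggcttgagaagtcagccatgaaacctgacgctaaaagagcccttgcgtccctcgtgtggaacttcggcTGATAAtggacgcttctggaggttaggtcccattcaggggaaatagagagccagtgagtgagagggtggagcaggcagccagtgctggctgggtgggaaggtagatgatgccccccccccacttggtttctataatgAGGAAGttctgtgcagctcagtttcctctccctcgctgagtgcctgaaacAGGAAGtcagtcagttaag
Pirb holds 3 matches to CAGNTG, 1 to AGGAAG and none to AGATAA or TGATAA. Inpp5d holds 1 match to TGATAA and 2 to AGGAAG. Dok3, whose window lies inside the gene's annotated span, has 1 match to CAGNTG, Ptpn6 has 1 to CAGNTG and 1 to AGGAAG, and Ptpn11 has none of the 4 motifs. A match is a description of the letters and not a bound site.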

How the data were processed

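Each array holds RNA of both arms. The authors deposited Agilent Feature Extraction 9.1.3.1 output, in which, per the file headers, spot brightness and local background are intensity values on a linear scale. The processed signals were background-subtracted, position-corrected and dye-normalized, and a multiplicative position ratio is given for each channel, per the file headers. The deposited series table holds log10 ratios of Cy5 over Cy3, which equalled the scanner's for all 45018 spots within 0.005; its column medians are 0.

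Background was corrected by normexp (offset 50) and arrays by loess, control spots at weight 0, in limma 3.58.1 (R 4.3.3); log2 ratios are of LMO2 siRNA over control siRNA, the sign of the raw ratio turned. Control spots (1639) were left out. Of 41174 probes, 24844 took their name from a GRCm38.p6 table by RefSeq accession, 9574 kept the file's symbol and 6756 had none. Probes with at least 1 channel well above background on both arrays were used (24676), the brightest standing for its gene; 5167 of 14259 genes had others. Means were tested against 0 with lmFit and eBayes (1 residual, 26.26 prior degrees of freedom) and Benjamini-Hochberg adjustment. The code was tested on simulated data of 14259 genes. It called 100% of the 100 genes changed 1.5-fold and 100% of the 100 genes changed 2-fold. The test also gave 37 false calls, so calls may hold more false ones than the adjusted p threshold implies. The number of arrays limits the precision.

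The 9 genes and the pathway and marker lists were chosen with earlier results of these data known. Named genes are Lmo2, the members, up to 4 called, unsaturated genes of largest log2 ratio per pathway list, the markers counted and the 5 genes nearest to Pirb and to Dok2; other list genes were named after their values were seen. Values of a few list genes are not reported here. No genome build of the array is used.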

Additional observations from a re-analysis of the deposited data

How the results depend on the processing

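Pirb and Dok2 were the members at 2-fold or more in each of the 11 alternatives and on each array alone, and their log2 ratios stayed positive. Against 1.98 with loess, Pirb read 1.41 with median centring, 2.33 with position correction, 2.44 in the processed signals, 2.44 in the series table, 2.09 with offset 10 and 2.33 as the mean of its probes. Dok2, also 1.98, read 1.49 with median centring, 2.23 in the processed signals, 2.23 in the series table, 2.19 with offset 10 and 1.84 with no background correction. Leaving out a replicate gave 1.92 to 2.04 for Pirb and 1.90 to 2.06 for Dok2. Inpp5d reversed to -0.44 with median centring; the cause was not tested.

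Counts of calls moved far more. Genes called higher numbered 3506 with loess, 422 with median centring, 1049 in processed signals, 966 in the series table, 543 at 1.5-fold and 811 in all 3 sets. Genes called lower numbered 3912, 9216, 554, 475, 254 and 391 in the same order. Pathway genes called higher numbered 36, 8, 22, 16, 10 and 21, and those called lower 13, 43, 6, 5, 2 and 4. Each log2 ratio already pairs the arms within an array, so the limma test is paired by array. No paired analysis was possible beyond this because there is 1 group of ratios, with no second group to share replicate numbers.

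With 2 arrays, 1 line and 1 dye orientation, the size of a dye effect was not measured. Lilrb4 and 2 Sirpa probes, with signal near background, bear on no difference. The dim probe of Dok3 read 0.09 with loess, 0.09 with no background correction, 0.17 with offset 10 and 0.52 in processed signals; the cause was not tested.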

Other observations

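Neighbours of Pirb and Dok2 in gene order (GRCm38.p6, used for order only) were looked at by position, within 5 genes on either side. Near Pirb, Mboat7, which encodes a lysophospholipid acyltransferase, rose by 1.03 ± 0.0026 and Tsen34, which encodes a subunit of the tRNA splicing endonuclease, rose by 0.66 ± 0.0012 on the log2 scale, both by the strict rule (SD, n = 2). Tmc4 at 0.23 and Lilra6 at 0.42 were called higher but not by the strict rule, and Leng1 at -0.12 was not called. Rps9 was saturated and is given no value, and Pira2 was not above background. Near Dok2, Xpo7 at 0.40 and Fndc3a at 0.15 were called higher, though not by the strict rule, and Dmtn at -0.01 and Npm2 at 0.07 were not called.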
